A study of Rattus norvegicus with 3 samples.

Results

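Detoxifying enzymes of 5 gene families were followed across 3 soft tissues of the rat upper jaw. The families were the soluble glutathione transferases (GST), their membrane-bound counterparts (MGST), the aldehyde dehydrogenases (ALDH), the aldo-keto reductases (AKR) and the cytochromes P450 (CYP). Members were taken by symbol alone: every gene in the array's annotation whose symbol begins with Gsta, Gstk, Gstm, Gsto, Gstp, Gstt, Mgst, Aldh, Akr or Cyp followed by its class or number, with the sterol demethylase Cyp51 left out. That gave 111 of 14217 measured genes, namely 57 CYP, 19 GST, 17 ALDH, 15 AKR and 3 MGST genes. Each gene was read from its brightest probe set, a group of short probes on a GeneChip array, among those annotated to 1 gene only.

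The tissues came from wild-type male Sprague Dawley rats aged 9 weeks, and laser microdissection was used to cut them out of sections. Peri-implant connective tissue (PICT) was taken beside a titanium alloy implant that had been set into the fresh socket of an upper first molar 4 weeks earlier. Oral mucosal connective tissue (OMCT) was taken at the same site 4 weeks after extraction with no implant, and periodontal connective tissue (PCT) beside an upper first molar that had not been extracted. Each tissue is 1 array, the labels do not give how many animals it pooled, and the design text once says mice for PCT where the sample labels say rat. With 1 array per tissue there is no replicate check, no test between tissues and no error over animals. In sections of mixed tissue, fewer cells of a type and less RNA per cell cannot be told apart.

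These enzymes handle foreign and self-made reactive compounds in successive steps. CYPs insert oxygen into lipophilic molecules, drawing electrons from the reductase Por. ALDHs and AKRs remove aldehydes and ketones by oxidation and reduction, and GSTs couple electrophiles to glutathione so that efflux pumps can export them. Many members also act on signalling lipids: ALDH1A enzymes make retinoic acid and CYP26 enzymes break it down, CYP4 and CYP2J enzymes oxidise fatty acids, and CYP11, CYP17, CYP19 and CYP21 enzymes make steroids.

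Values are intensities as deposited. The median intensity of all probe sets was 56.5 in PICT, 57.4 in OMCT and 34.3 in PCT, so a log2 difference below is relative to the array medians unless "as deposited" is written. The shift removed in this way was 0.60 for PICT minus PCT, -0.02 for PICT minus OMCT and 0.62 for OMCT minus PCT, and subtracting these amounts from an as-deposited difference gives the relative one. Differences were taken on log2(intensity + 8.56), which understates those of dim genes. A gene was called higher or lower when the relative difference was at least 1, which is 2-fold, and the brighter array lay at or above its own median. Where 2410 genes had several probe sets, these disagreed with an SD of 0.42 in PICT minus PCT, 0.38 in PICT minus OMCT and 0.39 in OMCT minus PCT, which measures probe error only. PCT had the highest ratio of 3' to 5' signal for Hk1, a sign of shortened RNA: 1.58 in PICT, 1.97 in OMCT and 2.80 in PCT. Its part in the differences from PCT was not tested.

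The labelled connective tissue was not pure. The basal keratin Krt14 had an intensity of 7491 in PICT, 6894 in OMCT and 8911 in PCT. It is 1 of 12 measured keratinocyte markers, which summed to 41286 in PICT, 32987 in OMCT and 41603 in PCT. Their median difference was -0.77 in PICT minus PCT, 0.41 in PICT minus OMCT and -0.97 in OMCT minus PCT. These markers were not all near level, and Krt15 had 186, 838 and 951 in PICT, OMCT and PCT. Markers of upper, differentiating epithelium summed to 35136 in PICT, 4515 in OMCT and 30573 in PCT over 14 genes, of which 13 were lower in OMCT than on either other array and Ivl was dim on every array. Fibroblast markers ran the other way, with a sum of 34152 in PICT, 55565 in OMCT and 23882 in PCT over 12 genes, none of them near 0. Their median difference was 0.02 in PICT minus PCT, -0.96 in PICT minus OMCT and 1.39 in OMCT minus PCT. PICT minus PCT had 2 called higher and 1 lower (5 and 1 as deposited). PICT minus OMCT had 0 higher and 6 lower, and OMCT minus PCT 9 higher and 0 lower. Col1a1 differed by -0.32 in OMCT minus PCT, and Dpt by -1.90 in PICT minus PCT. Macrophage markers summed to 11380 in PICT, 12786 in OMCT and 1186 in PCT over 12 genes. Lyz2 alone had 7419 in PICT, 7094 in OMCT and 797 in PCT. PICT minus PCT had 9 called higher and 0 lower, and OMCT minus PCT 10 higher and 0 lower. PICT minus OMCT had 1 higher, Fcgr3a, and 3 lower. Cd163 was called in no comparison. C1qa and C1qb were not called in PICT minus PCT (0.90 and -0.27), nor was Fcgr3a in OMCT minus PCT (-0.01). Endothelial markers had their lowest sum in PICT, at 2203 in PICT, 4299 in OMCT and 2592 in PCT over 8 genes. Of these, 5 were called lower in PICT than in OMCT and 5 lower than in PCT (2 as deposited), with medians of -1.35 and -1.12. Kdr, Tek and Emcn were called in neither comparison, and Tek differed by only 0.03 in PICT minus OMCT and -0.32 in PICT minus PCT. None of the 8 had an intensity near 0. These sums stand beside the results on single enzymes below, and their part in those results was not tested.

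Most P450 genes gave little signal, whereas most aldehyde dehydrogenases and glutathione transferases were readable. Of 111 members, 45 lay at or above the array median on at least 1 array, which is 40.5%, against 69.3% of all genes, and 32 did so on all 3. By family these were 13 of 17 ALDH, 12 of 19 GST, 3 of 3 MGST, 5 of 15 AKR and 12 of 57 CYP genes. The remaining 66 members lay below the median on every array, and 16 of them did not exceed the highest of the tryptophan gene controls (8.36 in PICT, 3.60 in OMCT and 5.71 in PCT) on any array. Among 20 measured genes of the CYP1A, 2A, 2B, 2C, 2E and 3A subfamilies, which carry much of drug oxidation in liver, 19 were below the median everywhere. Cyp3a9 was the exception, at 183 in PICT, 103 in OMCT and 134 in PCT, and was named after its values were seen. Most of the 6 measured hepatocyte markers were dim too. Alb (albumin) stood at 22.0, 26.8 and 13.0 in the same order, and Fgb (fibrinogen beta chain) at 1.16, 1.22 and 1.17. Apoa1 was the exception at 15.5, 27.7 and 35.3, just above the PCT median of 34.3. It was called lower in PICT than in PCT (-1.47, and -0.86 and not called as deposited).

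**Figure D1:**
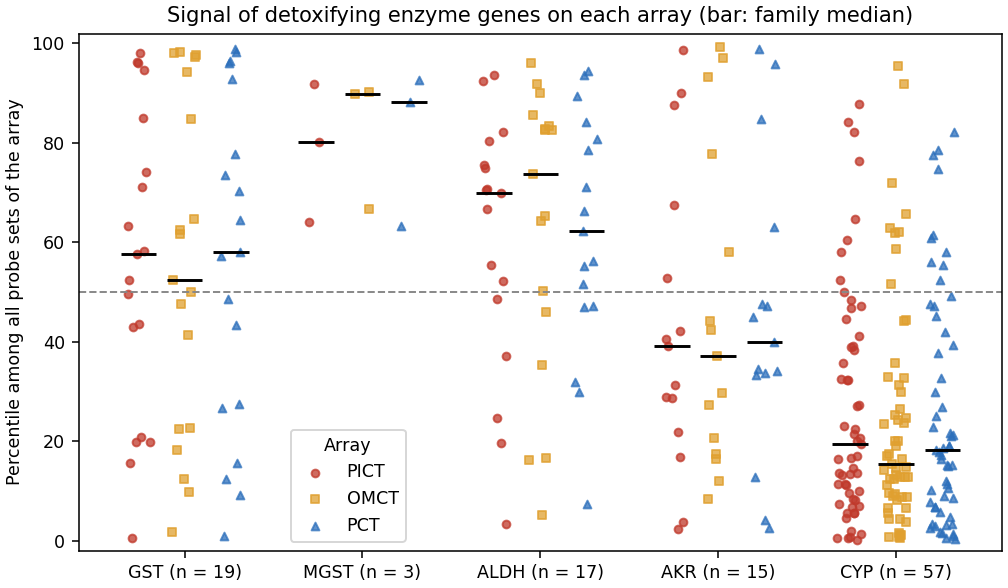
Percentile of each member's intensity among all probe sets of its array (vertical axis), by enzyme family and array; each point is a gene and the black bar is the family median. MGST and ALDH genes mostly lie above percentile 50 and most of the 57 CYP genes lie well under it on all 3 arrays.

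Few members passed the 2-fold rule, at a share near that of all genes. The rule cannot call a gene that lies below the median on every array, which leaves 40.5% of members and 69.3% of all genes open to a call. In PICT minus PCT, 2 members were higher and 5 lower, with 104 neither. This is 6.31% of members, against 7.35% of all genes (3.98% higher and 3.37% lower). Between PICT and OMCT, 3 were higher and 6 lower in PICT, which is 8.11% of members against 8.61% of all genes (4.15% higher and 4.46% lower). In OMCT minus PCT, 8 were higher and 4 lower, which is 10.8% of members against 10.5% of all genes (5.66% higher and 4.81% lower). With no filter on dim probe sets, the shares were 10.8% of members and 11.3% of all genes for PICT minus PCT, 13.5% and 12.2% for PICT minus OMCT, and 19.8% and 14.7% for OMCT minus PCT. The median difference of all 111 members was -0.27, -0.04 and -0.31 in these comparisons, beside -0.13, -0.04 and -0.08 over all 14217 genes. Signals near 0 on both arrays do not read 0 on the relative scale: Gsta3, at 0.296 in PICT and 0.296 in PCT, has a relative difference of -0.60 from the shift alone. Among the 29 members whose mean level was above that of the median gene, the medians were -0.17, -0.43 and 0.18, beside -0.04, -0.03 and -0.01 over 7109 genes chosen alike.

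How the arrays are scaled decides the split of directions against PCT. As deposited, PICT minus PCT had 8 members higher and 0 lower, beside 14.1% of all genes higher and 0.9% lower (15% called in all). OMCT minus PCT had 12 higher and 2 lower as deposited, beside 17.6% and 2.1% of all genes (19.7% in all). PICT minus OMCT depends little on the scaling, with 2 higher and 6 lower as deposited, beside 3.98% and 4.64% of all genes (8.62% in all). Over the 3 comparisons 17 members were called at least once, which is 15.3%, against 16.7% of all genes. Of these, 4 were called higher in OMCT than on both other arrays (3.60% of members, 2.12% of all genes) and 2 lower in OMCT than on both (1.80%, 2.37%). In PICT, 0 members were called higher than on both other arrays, against 0.957% of all genes. The 2 called lower in PICT than on both, Akr1b8 and Cyp21a1 (1.80%, against 1.03% of all genes), became 0 as deposited.

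**Figure D2:**
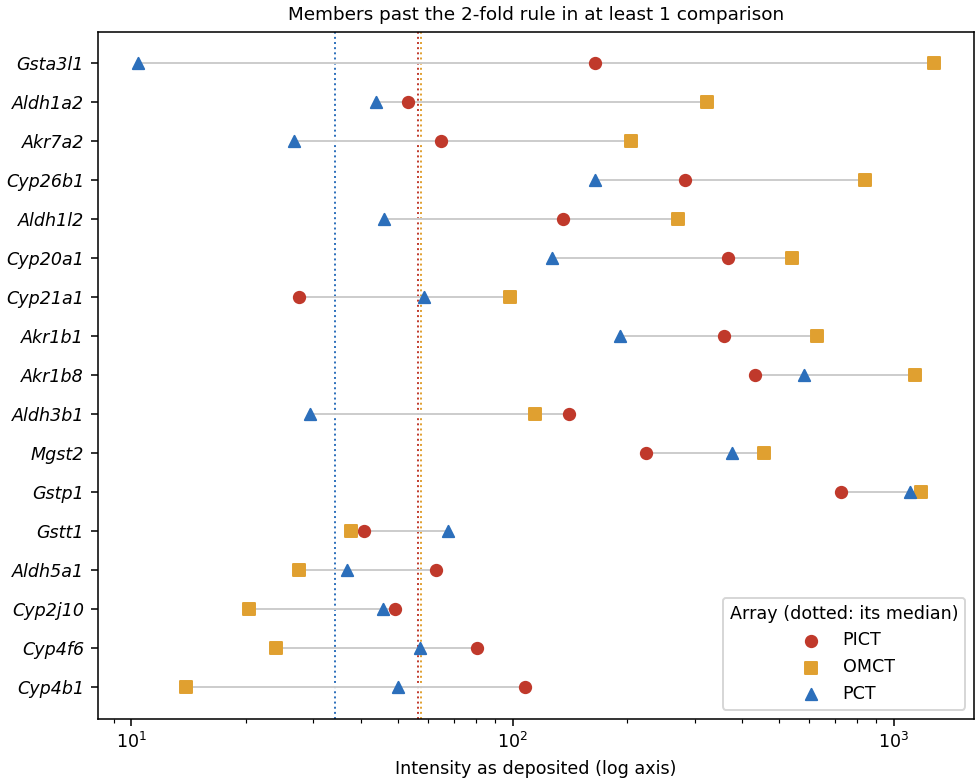
Intensity as deposited on a log axis for the 17 members called in at least 1 comparison, with a point for each array and a dotted line at each array's median of 56.5 (PICT), 57.4 (OMCT) and 34.3 (PCT). Rows run from genes highest in OMCT, led by Gsta3l1, to genes lowest in OMCT, ending with Cyp4b1.

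Glutathione transferases held the widest difference of all members, in a single alpha-class gene. Gsta3l1 (gene ID 363205, chromosome 9) had an intensity of 165 in PICT, 1276 in OMCT and 10.4 in PCT, so every pair of arrays differed. The log2 difference was 2.59 for PICT minus PCT, -2.87 for PICT minus OMCT and 5.46 for OMCT minus PCT. The PCT value lies above the 5.71 of the highest tryptophan gene control but at percentile 27.6 of its array, so the difference from it is less exact than the one between PICT and OMCT. PICT minus PCT was 1.52 with the pseudocount at the median of all values, and is not called where the brighter array must reach its 75th percentile. The gene has 1 probe set, and whether near-identical alpha-class copies share its probes was not tested. Its start region is shown because no other member differed as much. The search, on both strands, was for the antioxidant response element through which NRF2 acts (TGACNNNGC) and the xenobiotic response element of the aryl hydrocarbon receptor (GCGTG). Capitals mark a match in the 250 bases before the start, from the RefSeq promoter table of build GRCr8, and Gsta3l1 has none in this window.
Gsta3l1 (GRCr8 chr9:31115477-31115726, plus strand): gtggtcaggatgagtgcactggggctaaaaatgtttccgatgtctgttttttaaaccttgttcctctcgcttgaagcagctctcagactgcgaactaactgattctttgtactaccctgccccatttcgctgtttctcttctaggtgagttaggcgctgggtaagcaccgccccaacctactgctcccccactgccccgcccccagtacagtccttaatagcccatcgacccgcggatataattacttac

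Its alpha-class relatives did not share this pattern. Gsta4, which conjugates the lipid peroxidation product 4-hydroxynonenal, was bright and nearly level, at 1467 in PICT, 1630 in OMCT and 1424 in PCT. Its differences of -0.56 (PICT minus PCT), -0.13 (PICT minus OMCT) and -0.43 (OMCT minus PCT) were all under 2-fold. Gsta1 was lowest in OMCT, where Gsta3l1 was highest, at 55.5, 12.8 and 24.6, while PICT minus PCT was above 0 for both. Its PICT minus OMCT difference of 1.60 missed the call because 55.5 is just under the PICT median of 56.5. It was named after its values were seen. The fourth gene of the class, Gsta3, was at or below 0.667 on every array.

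In the other GST classes few genes passed the rule, and those that did were lower than in PCT. None of 7 mu-class genes was called in any comparison, with differences between -0.74 and 0.47 over all 3 comparisons. Gstm2, the brightest of them, stood at 904 in PICT, 693 in OMCT and 596 in PCT. Gstp1, the pi-class enzyme abundant in epithelia, had 726 in PICT, 1181 in OMCT and 1104 in PCT, and PICT minus PCT was -1.20. With the pseudocount at the median it was -0.92 and not called. For the theta-class gene Gstt1 the values were 40.7, 37.7 and 67.8, with PICT minus PCT at -1.23 and OMCT minus PCT at -1.34. Neither Gstt1 difference is called with the pseudocount at the median (-0.73 and -0.79) or under the 75th percentile filter. The Gstp1 and Gstt1 calls also depend on the scaling. As deposited, PICT minus PCT was -0.60 for Gstp1 and -0.63 for Gstt1, and OMCT minus PCT was -0.72 for Gstt1. Gstt3 (298, 306 and 382), the omega-class Gsto1 (947, 1462 and 659) and the peroxisomal and mitochondrial Gstk1 (101, 97.8 and 129) stayed under 2-fold in every comparison on the relative scale. Gsto1 was 1.14 higher in OMCT than in PCT as deposited.

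Of the membrane-bound transferases, Mgst2 was lowest in PICT. Mgst2, which can form leukotriene C4, had an intensity of 224 in PICT, 457 in OMCT and 375 in PCT. Its relative difference was -1.32 for PICT minus PCT, a call that is lost as deposited (-0.72) and just missed with the pseudocount at the median (-0.98), and -0.98 for PICT minus OMCT, just short of 2-fold. Mgst1, a transferase and peroxidase of the endoplasmic reticulum and mitochondria, stood at 508, 442 and 243. Its differences of 0.44, 0.22 and 0.22 were small on the relative scale, whereas as deposited PICT exceeded PCT by 1.04. Mgst3 differed by 0.05 between PICT and PCT and by -0.19 between PICT and OMCT.

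**Figure D3:**
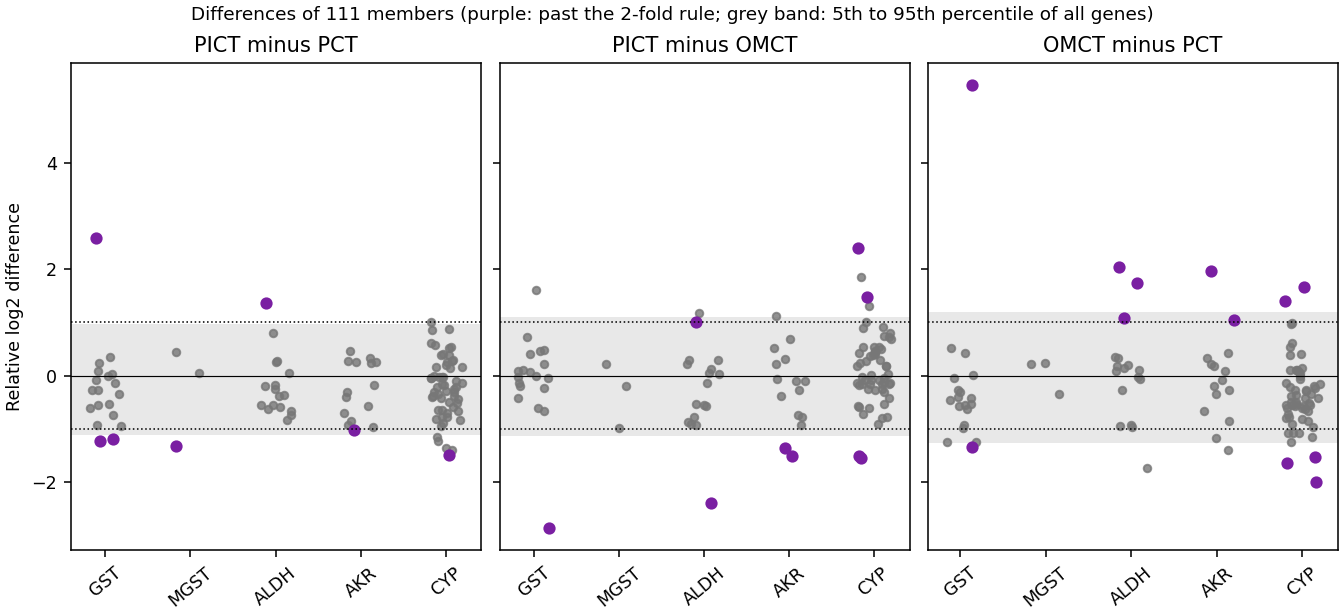
Relative log2 difference of each of the 111 members (points) by enzyme family in 3 comparisons; purple points pass the 2-fold rule, dotted lines mark -1 and 1, and the grey band runs from the 5th to the 95th percentile of all 14217 genes. Gsta3l1 stands apart at 5.46 in OMCT minus PCT, while most members of each family lie within the band.

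Among aldehyde dehydrogenases, the retinoic acid producer Aldh1a2 was high in OMCT. Aldh1a2 oxidises retinaldehyde in mesenchymal cells, and its intensity was 53.2 in PICT, 323 in OMCT and 43.9 in PCT. PICT minus OMCT was -2.40, OMCT minus PCT was 2.04, and PICT and PCT differed by -0.37. Its sister enzymes were dim: Aldh1a1 stood at percentiles 37.1, 46.0 and 47.1 of the PICT, OMCT and PCT arrays, and Aldh1a3 at percentiles 24.6, 5.09 and 31.8, both named after their values were seen.

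The retinoic acid hydroxylase Cyp26b1, which had the highest mean log2 level of the 57 CYP members, was high on the same array. It stood at 283 in PICT, 838 in OMCT and 164 in PCT, with PICT minus OMCT at -1.52, OMCT minus PCT at 1.67 and PICT minus PCT at 0.15. Its other probe set gave 126, 782 and 118, with PICT minus OMCT at -2.54 and OMCT minus PCT at 2.02. Thus the gene that makes and the gene that breaks down retinoic acid both had their highest signal in OMCT. The fibroblast markers Pdgfra (517, 1888 and 252 in PICT, OMCT and PCT) and Thy1 (366, 1643 and 168) were also highest there. They were picked from 12 fibroblast markers, of which 6 were called lower in PICT than in OMCT and 6 were not. Among those not called, Col1a1 differed by -0.54 and Postn by -0.35. The part of fibroblast content in the enzyme differences was not tested. The start regions of Aldh1a2 and Cyp26b1 are shown because both were highest in OMCT. Each holds 1 match to TGACNNNGC and 1 to GCGTG, in capitals, with no overlap between the 2.
Aldh1a2 (GRCr8 chr8:80758391-80758640, plus strand): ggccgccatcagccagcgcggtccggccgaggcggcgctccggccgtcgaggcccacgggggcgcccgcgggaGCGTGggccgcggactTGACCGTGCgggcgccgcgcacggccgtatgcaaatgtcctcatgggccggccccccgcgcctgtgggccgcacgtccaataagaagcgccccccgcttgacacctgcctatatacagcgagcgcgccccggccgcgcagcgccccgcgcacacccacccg
Cyp26b1 (GRCr8 chr4:118616177-118616426, minus strand): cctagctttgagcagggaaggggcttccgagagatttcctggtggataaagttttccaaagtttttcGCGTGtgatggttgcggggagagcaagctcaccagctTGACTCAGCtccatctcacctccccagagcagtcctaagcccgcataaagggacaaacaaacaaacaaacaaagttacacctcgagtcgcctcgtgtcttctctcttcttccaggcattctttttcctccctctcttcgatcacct

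These matches say little by themselves. Of 33469 promoters in the table, 10.1% hold the TGACNNNGC letters and 25.9% the GCGTG letters in the same window. Of 90 promoters that belong to 88 of the 111 members, 11 hold the first, which is 12.2%, and 25 the second, which is 27.8%. The matches in Aldh1a2 lie 161 to 153 and 177 to 173 bases before the start, and those in Cyp26b1 146 to 138 and 183 to 179.

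Other retinoid genes differed in both directions. Of 15 measured genes on a list of retinoid carriers, enzymes and receptors, PICT minus PCT had 0 higher and 2 lower, PICT minus OMCT 2 higher and 3 lower, and OMCT minus PCT 2 higher and 2 lower. As deposited, these were 2 and 1, 2 and 3, and 5 and 2. Over all genes the relative shares were 3.98% and 3.37%, 4.15% and 4.46%, and 5.66% and 4.81%. The binding protein Crabp1 resembled Aldh1a2, at 633 in PICT, 1833 in OMCT and 590 in PCT, with PICT minus OMCT at -1.50. Rarres1, named for its induction by a retinoid, stood at 208, 523 and 96.0, with OMCT minus PCT at 1.72. Crabp2, which delivers retinoic acid to its receptors and is made in epithelium, ran the other way at 2205, 515 and 1548, and PICT minus OMCT was 2.10. The retinol uptake receptor Stra6 likewise gave 95.7, 19.8 and 32.3, a PICT minus OMCT difference of 1.90. Rdh10, which makes the retinaldehyde that Aldh1a2 uses, was highest in PCT, at 109 in PICT, 94.8 in OMCT and 231 in PCT, so PICT minus PCT was -1.63 and OMCT minus PCT -1.84. The receptor Rarg had 123, 138 and 177, with PICT minus PCT at -1.09 (-0.49 as deposited).

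Of the remaining aldehyde dehydrogenases, Aldh3b1 and Aldh1l2 were lowest in PCT and Aldh5a1 in OMCT. Aldh3b1, which oxidises lipid-derived aldehydes, stood at 141 in PICT, 115 in OMCT and 29.4 in PCT, so PICT minus PCT was 1.37 and OMCT minus PCT 1.08. Neither is called with the pseudocount at the median (0.94 and 0.71) or under the 75th percentile filter. Aldh1l2, the mitochondrial formyltetrahydrofolate dehydrogenase, had 136, 271 and 45.9, and OMCT minus PCT was 1.73. Aldh5a1, which oxidises succinic semialdehyde, had 63.0, 27.5 and 36.8 and a PICT minus OMCT difference of 1.01, which is 0.99 and not called as deposited. Its other probe sets gave 0.44 and -0.65 in that comparison, so the call rests on 1 of 3. The brightest member, Aldh9a1, an aminoaldehyde dehydrogenase, stayed under 2-fold at 621 in PICT, 924 in OMCT and 466 in PCT. Aldh2, the mitochondrial enzyme that clears acetaldehyde, was nearly level, at 544, 542 and 424, and was named after its values were seen. In all, 13 of 17 ALDH genes were called in no comparison, including the 4 that lay below the median on every array. Over all genes, 16.7% were called at least once.

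Of 15 aldo-keto reductases, 3 passed the rule in at least 1 of the 3 comparisons, beside 16.7% of all genes. Each of the 3 was brightest in OMCT. Another 10 lay below the median on every array and could not be called. Akr7a2, which reduces succinic semialdehyde and aflatoxin dialdehyde, had an intensity of 64.9 in PICT, 204 in OMCT and 26.8 in PCT. PICT minus OMCT was -1.52 and OMCT minus PCT 1.97. Akr1b8, a rodent aldose reductase-like enzyme of the AKR1B subfamily, stood at 431, 1135 and 581, with PICT minus OMCT at -1.36. It was also lower in PICT than in PCT, at -1.02, a call that is lost as deposited (-0.42). Akr1b1, aldose reductase, had 359, 627 and 191, with OMCT minus PCT at 1.05; its other probe set was dim (9.87, 11.9 and 6.80) and differed by -0.21. Akr1a1, the aldehyde reductase with the brightest probe set among all members, stayed under 2-fold, at 1968, 2610 and 1458. The 6 measured AKR1C genes, which act on steroids and prostaglandins, lay below the median on every array, between 0.536 and 43.7.

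Cyp4b1, Cyp4f6 and Cyp2j10, of the fatty acid oxidising CYP4 and CYP2J groups, were lowest in OMCT. Some other CYP4 and CYP2J genes were not. Cyp4b1, a P450 of lung and other extrahepatic tissues, had an intensity of 108 in PICT, 13.9 in OMCT and 50.1 in PCT. PICT minus OMCT was 2.39 and OMCT minus PCT -2.01, while PICT and PCT differed by 0.39. With the pseudocount at the median the differences from OMCT were 1.34 and -1.02, and neither is called under the 75th percentile filter. Cyp4f6, from a subfamily of fatty acid hydroxylases, followed at 80.8, 24.0 and 57.1, with PICT minus OMCT at 1.48 and OMCT minus PCT at -1.64. Both calls are lost with the pseudocount at the median (0.85 and -0.90) and under the 75th percentile filter. Cyp2j10, from a subfamily that makes epoxides of arachidonic acid, stood at 49.2, 20.4 and 45.6, and OMCT minus PCT was -1.53 (-0.90 as deposited, and no longer called). By contrast, Cyp4v3 was highest in OMCT, at 63.3 in PICT, 117 in OMCT and 32.9 in PCT, and so was Cyp2j3, at 53.1, 85.9 and 38.4. Cyp2j4 was lowest in PCT, at 249.9, 155 and 109, and these 3 genes were named after their values were seen. Loricrin, a protein of the cornified envelope, was likewise low in OMCT, at 3280, 58.4 and 2447. Cyp4b1 had the widest PICT minus OMCT difference of any P450, and its start region holds 1 match to TGACNNNGC, in capitals, 22 to 14 bases before the start.
Cyp4b1 (GRCr8 chr5:134393117-134393366, minus strand): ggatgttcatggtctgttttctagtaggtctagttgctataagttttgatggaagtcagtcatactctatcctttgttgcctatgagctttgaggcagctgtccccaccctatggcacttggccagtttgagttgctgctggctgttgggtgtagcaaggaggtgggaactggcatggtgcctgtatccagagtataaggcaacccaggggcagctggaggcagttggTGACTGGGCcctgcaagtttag

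Cyp20a1 and Cyp21a1 were the remaining P450 calls. Cyp20a1, a P450 with no well established substrate, had an intensity of 366 in PICT, 541 in OMCT and 127 in PCT, with OMCT minus PCT at 1.40. Cyp21a1, the steroid 21-hydroxylase of the adrenal cortex, stood at 27.5, 98.3 and 58.5, with PICT minus PCT at -1.50 (-0.90 as deposited) and PICT minus OMCT at -1.55. With the pseudocount at the median these were -0.84 and -0.94, and neither is called there or under the 75th percentile filter. It has 1 probe set, and the steroid enzymes Cyp11a1, Cyp11b1, Cyp17a1 and Cyp19a1 were dim on all arrays, between 0.326 and 9.70. Cyp1a1 and Cyp1a2, the classical targets of the aryl hydrocarbon receptor, did not exceed the highest control on any array. Cyp2j3 showed how probe sets can disagree: PICT minus OMCT was -0.60 by the brighter one and -1.82 by the other. Of 57 CYP genes, 51 were called in no comparison, including the 45 that lay below the median on every array. The share called at least once over all genes was 16.7%.

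Partner and neighbouring genes of the detoxifying pathways were read from lists that the family rule did not use. The shares of all genes called higher and lower were 3.98% and 3.37% in PICT minus PCT, 4.15% and 4.46% in PICT minus OMCT, and 5.66% and 4.81% in OMCT minus PCT. Por, the reductase that feeds electrons to microsomal P450s, had 126 in PICT, 215 in OMCT and 229 in PCT. Its PICT minus PCT difference was -1.42 (-0.82 as deposited), and it was 1 of 6 electron partners called lower there, with 0 higher. Cyb5r3, the cytochrome b5 reductase, stood at 560, 1411 and 532 and was lower in PICT than in OMCT by -1.30. Among 10 receptors and NRF2 genes, Ahrr and Tiparp were called. Ahrr, the repressor of the aryl hydrocarbon receptor, had 31.8 in PICT, 147 in OMCT and 12.6 in PCT, with PICT minus OMCT at -1.93 and OMCT minus PCT at 2.25. Tiparp, a target of that receptor, stood at 354, 250 and 107, with PICT minus PCT at 1.05. Nfe2l2, which encodes NRF2, differed by 0.25, 0.56 and -0.32 in PICT minus PCT, PICT minus OMCT and OMCT minus PCT, and its target Nqo1 by -0.46, 0.18 and -0.64.

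The glutathione supply genes called in PICT minus OMCT, namely Slc7a11, Ggt1 and Ggct, were lowest in OMCT. Slc7a11, the cystine importer, was highest in PCT, with 401 in PICT, 194 in OMCT and 1333 in PCT. PICT minus PCT was -2.31, PICT minus OMCT 1.03 and OMCT minus PCT -3.35. Ggt1, which cleaves extracellular glutathione, had 262, 101 and 212, and Ggct, which degrades gamma-glutamyl peptides, had 179, 86.3 and 148. Their OMCT minus PCT differences were -1.63 and -1.34 (-1.01 and -0.72 as deposited). Ggt5 was higher in PICT than in PCT by 1.05. PICT minus OMCT had 3 of 8 such genes called higher and 0 lower (2 and 0 as deposited, where Ggct was at 0.98 and not called). Of 7 efflux transporters, OMCT minus PCT had 4 lower and 0 higher (2 and 0 as deposited). Abcc5, at 373 in PICT, 99.2 in OMCT and 229 in PCT, differed by -1.76, Abcb1a, which was lowest in PICT (9.33, 14.7 and 42.0), by -1.74, Abcc4 by -1.42 and Abcc1 by -1.04.

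Other oxidising and conjugating enzymes included the dimmest OMCT values beside bright PICT and PCT ones. Fmo2, a flavin monooxygenase of lung and skin, had an intensity of 674 in PICT, 3.63 in OMCT and 279 in PCT. Its differences of 5.83 (PICT minus OMCT) and -5.18 (OMCT minus PCT) are not exact, since the OMCT value is close to the highest control there, 3.60. Ces1d, a carboxylesterase, followed with 593, 27.0 and 443 and differences of 4.10 and -4.29. Adh7, an alcohol dehydrogenase of upper digestive epithelium that also oxidises retinol, had 302, 99.4 and 131, with PICT minus OMCT at 1.54. Sult1a1, a phenol sulfotransferase, was highest in PCT, at 47.2, 34.3 and 114, with OMCT minus PCT at -2.14 and PICT minus PCT at -1.74. Fmo5 was higher in PICT than in PCT by 1.51. Of the 28 measured genes on this list, which also holds Por, 5 were called higher and 0 lower in PICT minus OMCT. OMCT minus PCT had 0 higher and 9 lower (3 and 5 as deposited), and PICT minus PCT had 1 higher and 3 lower (4 and 1). Differentiated epithelium markers had a median of 3.80 in PICT minus OMCT and -4.33 in OMCT minus PCT, and the part of epithelial content in the enzyme differences was not tested.

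**Figure D4:**
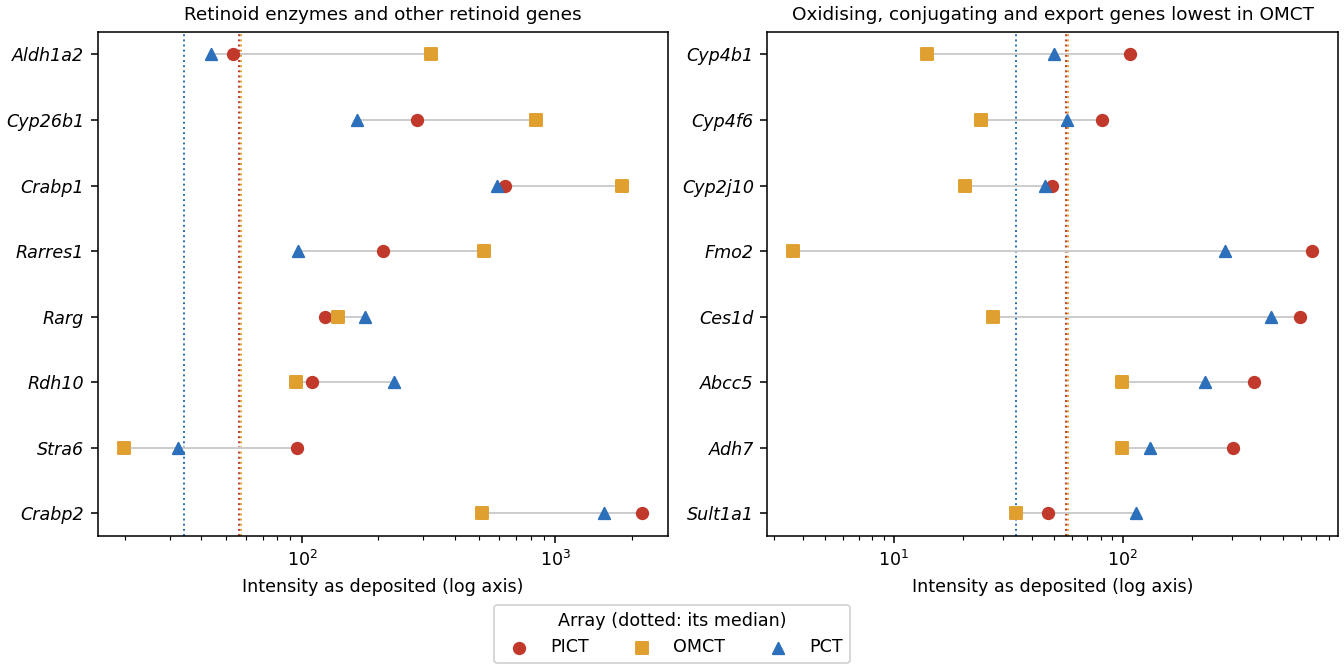
Intensity as deposited on log axes, with a point for each array and dotted lines at the array medians. Left, the enzymes Aldh1a2 and Cyp26b1 with other retinoid genes, where Crabp1 and Rarres1 share the OMCT maximum and Crabp2 and Stra6 do not. Right, Cyp4b1, Cyp4f6 and Cyp2j10 with neighbouring genes picked because they were lowest in OMCT, which other genes on the same lists were not.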

How the data were processed

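RNA of 3 tissues, 1 array each, was amplified, labelled and put on a rat GeneChip, per the labels' protocols. The deposited table holds intensity values on a linear scale for 31099 probe sets, and how the authors summarised probes or scaled arrays was not stated in the labels. Gene names came from a platform annotation of 2016; all 111 members were found by gene ID in a RefSeq table of assembly GRCr8, and the names of 0 of them differed. Of the probe sets, 20826 had 1 symbol and were not controls; probe sets with several symbols were left out. The brightest probe set by mean log2 value stood for a gene. The pseudocount of 8.56 is the 20th percentile of all values, and each array's median log2 value was subtracted.

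No test was possible with 1 array per tissue, and the number of arrays limits the precision. The calling code was tested on simulated data. Python 3.11.15, pandas 2.3.3 and numpy 2.4.6 were used. Members and gene lists were chosen with earlier results of these data known. Named genes are, per comparison and direction, up to 6 called members with the largest difference. They also include the brightest member of each family and up to 3 called genes per list and comparison. Some exceptions are marked as named after their values were seen. Also outside this rule are Akr1b1, Mgst3, Nfe2l2, Nqo1, Abcc1 and the probe set comparison of Cyp2j3. So are the genes given as background levels, the dim members and the genes of probe sets with several symbols. Alternatives were other scalings, pseudocounts, filters, probe set summaries and a larger difference. No member was left out.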

Additional observations from a re-analysis of the deposited data

How the results depend on the processing

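Member counts are given for PICT minus PCT, PICT minus OMCT and OMCT minus PCT, where the rule called 7, 9 and 12 members. Of all genes, the rule called 7.35%, 8.61% and 10.5%. With no filter on dim probe sets the counts were 12, 15 and 22, beside 11.3%, 12.2% and 14.7% of all genes. With the brighter array at or above its 75th percentile they were 3, 5 and 7, beside 4.33%, 5.51% and 6.91%. Each filter changes which genes can be called. With the pseudocount at the median of all values, 1 member was called in PICT minus PCT, beside 3.72% of all genes. With a log2 difference of at least 1.5 it was again 1, beside 3.03%. PICT minus OMCT and OMCT minus PCT stayed within 1.5 times of their counts under both. Their shares of all genes were 5.11% and 6.84% with that pseudocount, and 3.66% and 5.35% with the larger difference. All 3 counts also stayed within 1.5 times as deposited, under quantile normalization, with a pseudocount of 1 and with the mean of all probe sets of a gene, although the directions shifted as deposited. Over the 28 called member differences, 0 changed sign under any alternative tried. As deposited, 8 of the 28 were no longer called; this was 1 under quantile normalization, 1 with a pseudocount of 1, 13 with the pseudocount at the median, 13 under the stricter filter and 2 with the mean of all probe sets. Leaving out a replicate was not possible with 1 array per tissue, and no animal spread stands behind any value. Dim members, such as most CYP genes, carry no usable difference.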

Other observations

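Besides the members, 9 probe sets were annotated to several genes of which at least 1 fits the family rule, and were not used in the comparisons. The probe set for Aldh3b2 and Aldh3b3 had an intensity of 178 in PICT, 155 in OMCT and 186 in PCT, with relative log2 differences of -0.66 (PICT minus PCT), 0.21 (PICT minus OMCT) and -0.87 (OMCT minus PCT). The probe set for Gsta5 and Gsta2, alpha-class genes like Gsta3l1, stood at 22.2, 21.9 and 19.9, and so did not share the high OMCT value of Gsta3l1.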
